A study of Mus musculus with 12 samples.

Results

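The sensors of misplaced nucleic acid were followed as a set of 10 genes. On the DNA side these were Cgas, Sting1 and Trex1, and on the RNA side Rigi, Ifih1, Dhx58, Mavs and Tlr3. The set also held Zbp1, which binds Z-form nucleic acid, and Adar, which edits RNA duplexes. All 10 genes were chosen by name for their known roles, and are 10 of the 24100 genes in the table of read counts. To ask which transcripts differ when RTF2, a protein of the replication fork, is lost, RNA was sequenced from mouse embryonic fibroblasts (MEFs) of 2 lines, each from its own mother. WT MEFs (Rtf2+/+) and RTF2-deficient MEFs (Rtf2-/lox) of a line were littermates. All 4 groups were SV40-immortalized and received a Cre retrovirus 72 hrs before collection, so Cre and the virus were also present in the controls. Each group had 3 libraries, which the paper calls technical replicates, and was 1 line of MEFs. P-values from these libraries therefore measure the spread between libraries of a line and not the spread between embryos.

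The cell reads DNA outside the nucleus through cGAS, the enzyme that binds DNA and makes the messenger cGAMP, and STING, the receptor of that messenger on the endoplasmic reticulum. RNA with features of viral RNA is read in the cytosol by RIG-I and MDA5, the products of Rigi and Ifih1, which signal through the adaptor MAVS on mitochondria, and in endosomes by TLR3. These routes meet in kinases and transcription factors that switch on type I interferon, and interferon in turn raises the transcription of most of the sensors themselves in fibroblasts, with TREX1 and ADAR1 as enzymes that remove or edit the ligands.

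Promoter sequence was searched for the elements through which interferon acts on its target genes, the ISRE (GAAANNGAAA) and the GAS element (TTCNNNGAA), on either strand. RefSeq's promoter windows on GRCm38, from 250 bases before to 50 bases after a transcription start, were found for 7 of the 10 sensors (Cgas, Rigi, Ifih1, Mavs, Tlr3, Trex1 and Adar). A match was held by 3 stretches, each printed from 5′ to 3′ on the strand of its gene with the matching letters in capitals. The Rigi stretch lies at chr4:40239804-40239833 on the minus strand, and its ISRE reads on the opposite strand from position 3 after the start.
Rigi: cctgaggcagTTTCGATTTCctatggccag
The Ifih1 stretch lies at chr2:62646206-62646233 on the minus strand, with the ISRE from position 33 after the start.
Ifih1: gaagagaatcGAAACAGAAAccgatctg
The Adar stretch lies at chr3:89730730-89730759 on the plus strand, in the window of 1 of its 3 annotated starts, with a GAS element from position 23 after that start.
Adar: gggaagccttTTCAAGGAAacgaaagtgaa
An ISRE of these letters was present in 3.44% and a GAS element in 8.30% of all 32851 promoter windows. A match is a description of the letters only.

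Library totals lay between 39360167 and 44695002 counts. Where the shallowest library had no count of a gene, the gene's level could still be up to 0.0762 counts per 1e6 counts of the raw total. This limit covers counting error only. Levels are given in CPM, which are counts per 1e6 counts, scaled by the TMM method. Rtf2 lay between 44.8 and 57.7 CPM in the 6 WT libraries and between 5.44 and 6.66 CPM in the 6 RTF2-deficient libraries, a log2 fold change of −3.01 (SE 0.06, adjusted p = 2.45e-11 in edgeR's quasi-likelihood test). The fibroblast label was checked against 10 markers, whose summed level was between 19616 and 31831 CPM. Col1a1, the main fibrillar collagen, lay between 4848 and 9492 CPM, whereas Dcn (0.392 to 2.10 CPM) and Pdgfra (3.49 to 21.7 CPM) were low. Xist was at 103 to 173 CPM and Ddx3y at no more than 0.195 CPM in 9 libraries, and WT line 2 alone had Ddx3y at 91.8 to 107 CPM with Xist at 0.0217 to 0.132 CPM. In line 2 the genotype and the sex of the embryo thus cannot be told apart.

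All 10 sensors passed the filter on low counts that left 14263 genes for testing, which was set on the 4 groups without regard to their names. None of the 10 passed an adjusted p under 0.05 for genotype over both lines, in line 1, in line 2 or in the difference between the lines. Among all genes tested, 13.2% passed over both lines, 3.20% in line 1, 12.5% in line 2 and 1.29% in the difference between lines. Without adjustment at the same threshold, edgeR's quasi-likelihood test passed 3 sensors over both lines (Sting1, Dhx58 and Zbp1) against 28.5% of all genes. It passed 1 (Sting1) in line 1 against 13.9%, 1 (Trex1) in line 2 against 27.8%, and 0 in the difference between lines against 8.49%. DESeq2, with adjustment, called 2 sensors over both lines (18.9% of all genes), 0 in line 1 (5.97%), 1 in line 2 (18.1%) and 0 in the difference (2.87%), and voom called 1 over both lines (24.2%). No sensor had all 6 RTF2-deficient libraries below all 6 WT libraries, as 4.41% of all genes had. The log2 fold change, RTF2-deficient over WT, was below 0 for all 10 sensors over both lines, with a median of −0.78 against 0.00 over all genes tested, where 49.6% of genes were below 0. The sensors are not independent of each other, since they share their libraries, so their count of 10 cannot be read against that share. In a bulk sample, fewer cells that express a gene and less RNA of it per cell cannot be told apart.

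**Figure D1:**
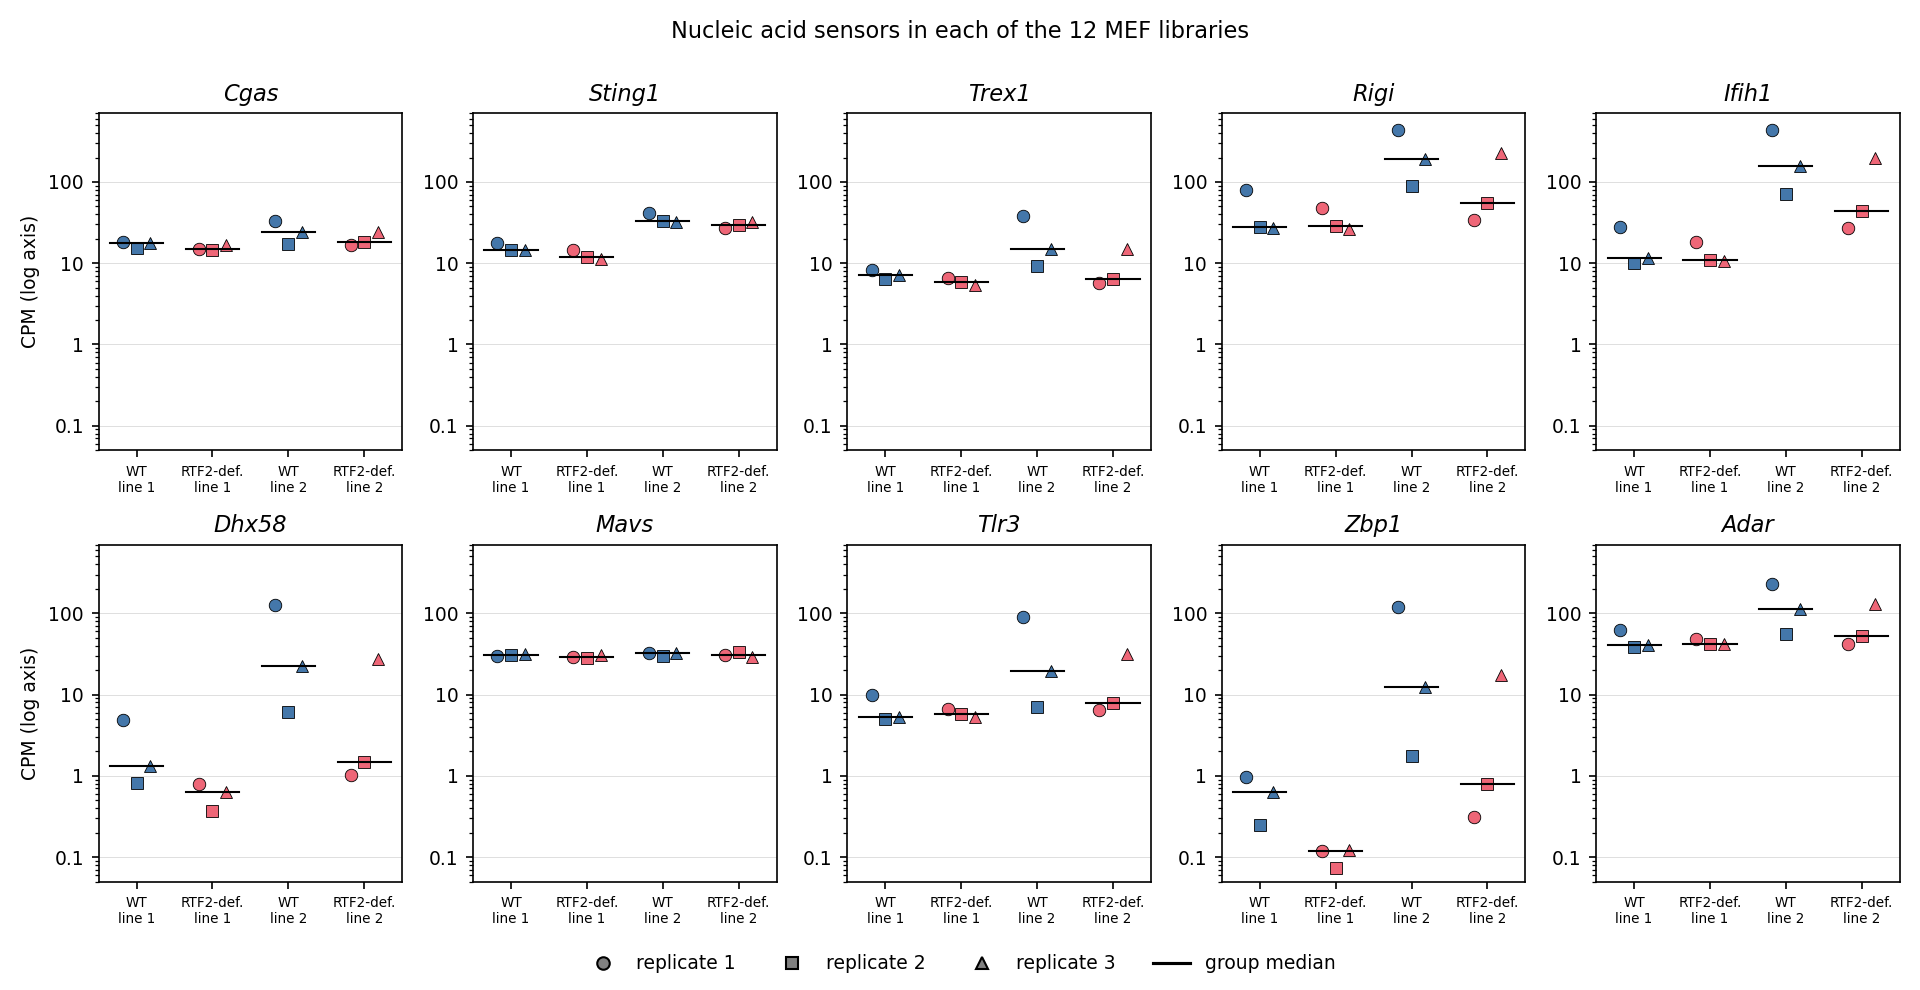
Each panel plots 1 sensor, with the level in CPM on a log axis and the 4 groups side by side. Circles, squares and triangles stand for replicates 1, 2 and 3, and the bar is the group's median. Mavs lies between 28.0 and 33.3 CPM in all 12 libraries, whereas Zbp1 goes from 0.0736 to 118 CPM, and WT line 2 replicate 1 is the top point in 9 of the 10 panels.

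On the DNA side, Cgas (chr9:78430518-78443237, minus strand) was at 18.5, 15.4 and 17.9 CPM in replicates 1, 2 and 3 of WT line 1 and at 15.1, 14.5 and 17.0 CPM in RTF2-deficient line 1. In line 2 it was at 32.8, 17.2 and 24.5 CPM in WT MEFs and at 16.7, 18.5 and 24.5 CPM in RTF2-deficient MEFs. The genotypes overlapped in both lines, and replicate 3 of line 2 was nearly equal in them. The log2 fold change over both lines was −0.24 (SE 0.14, adjusted p = 0.303 in edgeR's quasi-likelihood test, adjusted by Benjamini-Hochberg, as for every adjusted p unless another tool is named).

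Sting1, the receptor that cGAMP activates, was at 17.9, 14.4 and 14.6 CPM in WT line 1 and at 14.6, 11.9 and 11.2 CPM in RTF2-deficient line 1. It was at 41.5, 33.4 and 32.3 CPM in WT line 2 and at 26.8, 29.3 and 32.4 CPM in RTF2-deficient line 2. Every line 2 library was above every line 1 library, while within each line a single library carried the overlap between genotypes. The log2 fold change over both lines was −0.30 (SE 0.09, adjusted p = 0.0571), the sensor closest to the threshold in that comparison. Without RTF2-deficient line 1 replicate 1, it was −0.34 with an adjusted p of 0.0342. Sting1 also passed with the replicate block in line 1 (adjusted p = 0.0272), a fit in which 14.9% of all genes passed, and by DESeq2 (adjusted p = 0.0295) and voom (adjusted p = 0.0143). In voom the correlation between libraries of a group was estimated as −0.148, so its block per group made no allowance for their likeness.

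Trex1, the exonuclease that degrades DNA in the cytosol, was at 8.31, 6.34 and 7.16 CPM in WT line 1 and at 6.49, 5.86 and 5.34 CPM in RTF2-deficient line 1. In line 2 it was at 38.2, 9.21 and 14.9 CPM in WT MEFs and at 5.65, 6.41 and 14.96 CPM in RTF2-deficient MEFs. The spread of WT line 2 came from replicate 1, and RTF2-deficient line 2 replicate 3 stood above both other libraries of its group. Its log2 fold change was −0.76 (SE 0.36, adjusted p = 0.182) over both lines and −1.21 (SE 0.48, adjusted p = 0.128) in line 2. Trex1 (chr9:109057932-109059723, minus strand) lies within Atrip on the same strand, and Atrip was at 15.2 to 20.2 CPM, so the split of reads between them, and with it the level of Trex1, is uncertain.

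Among the RNA helicases, Rigi (chr4:40203777-40239825, minus strand), which binds the phosphorylated ends of short RNA duplexes, was at 80.5, 28.1 and 26.9 CPM in WT line 1 and at 47.8, 29.0 and 26.2 CPM in RTF2-deficient line 1. It was at 434, 88.7 and 189 CPM in WT line 2 and at 33.8, 54.7 and 226 CPM in RTF2-deficient line 2. Replicate 1 was the highest library in both groups of line 1, and in line 2 the ranges of the genotypes overlapped through RTF2-deficient replicate 3 alone. Rigi's log2 fold change was −0.40 (SE 0.74, adjusted p = 0.894) in line 1 and −1.18 (SE 0.75, adjusted p = 0.335) in line 2.

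Ifih1 (chr2:62595618-62646255, minus strand), whose product MDA5 coats long RNA duplexes, was at 27.6, 10.2 and 11.4 CPM in WT line 1 and at 18.5, 10.9 and 10.5 CPM in RTF2-deficient line 1. In line 2 the levels were 442, 70.6 and 158 CPM in WT MEFs and 26.9, 43.8 and 196 CPM in RTF2-deficient MEFs. Its highest library was that of Rigi in each of the 4 groups. Its log2 fold change was −0.30 (SE 0.79, adjusted p = 0.928) in line 1 and −1.33 (SE 0.78, adjusted p = 0.295) in line 2.

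Dhx58 (chr11:100694884-100704271, minus strand) encodes LGP2, a helicase that binds RNA but lacks the domain that signals through MAVS. It was at 4.92, 0.817 and 1.30 CPM in WT line 1 and at 0.788, 0.368 and 0.634 CPM in RTF2-deficient line 1. It was at 125, 6.08 and 22.6 CPM in WT line 2 and at 1.01, 1.49 and 27.2 CPM in RTF2-deficient line 2. Every RTF2-deficient library of line 1 was below every WT library, a separation that 11.3% of all genes showed in that direction. In line 2, replicates 1 and 2 of the RTF2-deficient MEFs were below all WT libraries and replicate 3 was above WT replicates 2 and 3. Over both lines the fitted difference was −2.22 on the log2 scale (SE 0.94, adjusted p = 0.147).

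Mavs (chr2:131234063-131248025, plus strand), the adaptor on which RIG-I and MDA5 converge, was at 29.8, 31.1 and 31.8 CPM in WT line 1 and at 29.1, 28.0 and 30.5 CPM in RTF2-deficient line 1. It was at 32.6, 29.8 and 32.3 CPM in WT line 2 and at 30.9, 33.3 and 28.7 CPM in RTF2-deficient line 2. The highest library was 1.19 times the lowest, the narrowest range of the 10 sensors. Over both lines the difference was −0.05 on the log2 scale (SE 0.05, adjusted p = 0.507).

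Tlr3 (chr8:45395665-45411075, minus strand), the receptor that meets RNA in endosomes and not in the cytosol, was at 9.81, 4.98 and 5.35 CPM in WT line 1 and at 6.59, 5.69 and 5.36 CPM in RTF2-deficient line 1. In line 2 it was at 91.0, 7.01 and 19.5 CPM in WT MEFs and at 6.52, 7.88 and 31.3 CPM in RTF2-deficient MEFs. WT line 2 replicate 2 was within the range of line 1, and the high values of line 2 were those of WT replicates 1 and 3 and RTF2-deficient replicate 3. Its log2 fold change was −0.19 (SE 0.83, adjusted p = 0.958) in line 1 and −1.36 (SE 0.81, adjusted p = 0.304) in line 2.

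Zbp1 (chr2:173206612-173218959, minus strand) encodes a receptor of Z-form nucleic acid that can start necroptosis, and it was the least abundant sensor in line 1. It had 41, 10 and 26 counts (0.979, 0.248 and 0.627 CPM) in WT line 1 and 5, 3 and 5 counts (0.119, 0.0736 and 0.122 CPM) in RTF2-deficient line 1. In line 2 it had 5446, 80 and 520 counts (118, 1.76 and 12.3 CPM) in WT MEFs and 13, 31 and 781 counts (0.313, 0.795 and 17.6 CPM) in RTF2-deficient MEFs. The genotypes did not overlap in line 1 and overlapped in line 2 through RTF2-deficient replicate 3. In line 2 no sensor had all RTF2-deficient libraries below all WT libraries, as 15.5% of all genes had. The log2 fold change over both lines was −2.76 (SE 1.20, adjusted p = 0.153). Zbp1 lies 736.712 kb from Rtf2 on the same chromosome.

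Adar (chr3:89714469-89753455, plus strand), the enzyme whose editing of adenosine keeps a cell's own RNA duplexes from MDA5, was at 61.9, 38.9 and 40.4 CPM in WT line 1 and at 48.8, 42.0 and 41.6 CPM in RTF2-deficient line 1. It was at 228, 54.9 and 114 CPM in WT line 2 and at 41.7, 52.8 and 129.6 CPM in RTF2-deficient line 2. As for Rigi and Ifih1, replicate 1 led both groups of line 1, and in line 2 WT replicate 1 and RTF2-deficient replicate 3 led their groups. Adar's log2 fold change was −0.09 (SE 0.49, adjusted p = 0.967) in line 1 and −0.82 (SE 0.49, adjusted p = 0.305) in line 2.

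**Figure D2:**
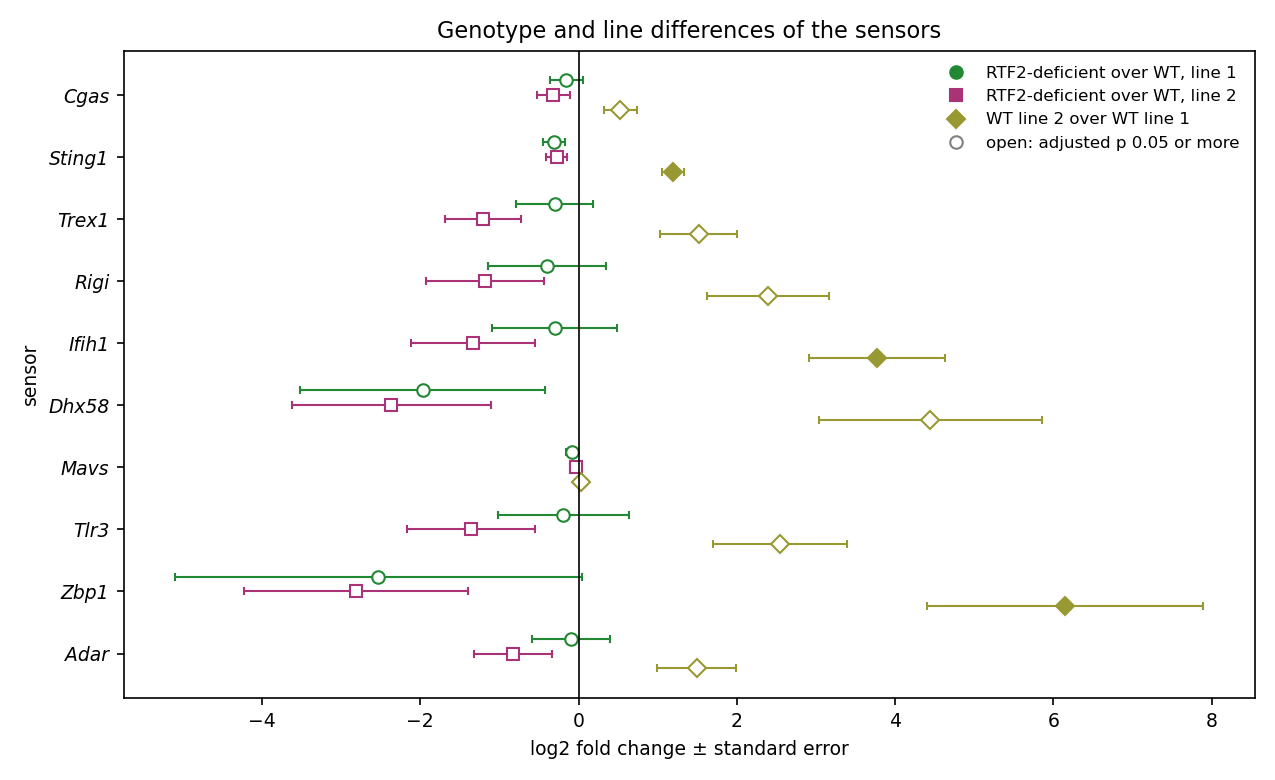
The log2 fold change of each sensor (horizontal axis) is shown with its standard error for RTF2-deficient over WT in line 1, for the same in line 2, and for WT line 2 over WT line 1. Filled points passed an adjusted p under 0.05, which only Sting1, Ifih1 and Zbp1 did, in the comparison of the WT lines. Standard errors go from 0.07 for Mavs to 2.57 for Zbp1 in line 1.

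Within lines, the median log2 fold change of the 10 sensors was −0.30 in line 1 and −1.19 in line 2, against 0.01 and −0.00 over all genes tested, of which 48.5% and 50.5% were below 0. In line 2 the fitted values of Zbp1 (−2.81, SE 1.42) and Dhx58 (−2.36, SE 1.26) corresponded to 7.01-fold and 5.15-fold lower levels, with adjusted p of 0.225 and 0.248. All 10 were below 0 within each line, but without WT line 1 replicate 1 the values of Rigi, Ifih1, Tlr3 and Adar in line 1 became 0.33, 0.31, 0.20 and 0.16, and in line 2 those of Mavs and Tlr3 turned as given below for left-out libraries. The difference between the lines had adjusted p from 0.886 to 0.998, so an effect of different size in the lines was not shown.

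Replicate numbers paired the libraries in line 1, where RTF2-deficient and WT libraries of the same number deviated together from their group means (r = 0.842, 0.768 and 0.804 for numbers 1, 2 and 3 over 9281 genes of the same pair of libraries), and did not in line 2 (r = −0.762, 0.216 and −0.400). Alternatives for line 1 were added after seeing the data. With the block for line 1 inside the joint fit of both lines, 0 sensors passed in line 1 (2.75% of all genes were lower), and Zbp1 had a standard error of 2.98. Line 1 fitted alone without the block also called 0 sensors (1.99% of all genes were lower), with a standard error of 0.60 and an adjusted p of 0.0888 for Zbp1. With both choices together, line 1 fitted alone and the block, that standard error was 0.40 and 4 sensors passed as lower in RTF2-deficient MEFs, against 14.2% of all genes tested. They were Zbp1 (−2.50, adjusted p = 0.00241), Dhx58 (−1.79, adjusted p = 0.00522), Sting1 (−0.32, adjusted p = 0.00533) and Trex1 (−0.30, adjusted p = 0.0486). The remaining 6 had adjusted p between 0.119 (Cgas) and 0.564 (Adar).

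The log2 ratios of the pairs, on which the block rests, differed in how even they were. Dhx58 had log2 ratios, RTF2-deficient over WT, of −2.64, −1.15 and −1.04 in pairs 1, 2 and 3, and Sting1 of −0.30, −0.27 and −0.38. Zbp1 had −3.04, −1.75 and −2.36, and its pair 2 rested on 3 counts against 10, a ratio of 0.297 with an exact 95% counting interval of 0.0525 to 1.15. Rigi (−0.75, 0.04 and −0.04), Ifih1 (−0.58, 0.10 and −0.12), Tlr3 (−0.57, 0.19 and 0.00) and Adar (−0.34, 0.11 and 0.05) were lower in pair 1 and near 0 in pairs 2 and 3. The RTF2-deficient library was below its WT partner in 3 of 3 pairs for 6 sensors (Cgas, Sting1, Trex1, Dhx58, Mavs and Zbp1), as it was for 28.4% of all genes tested.

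**Figure D3:**
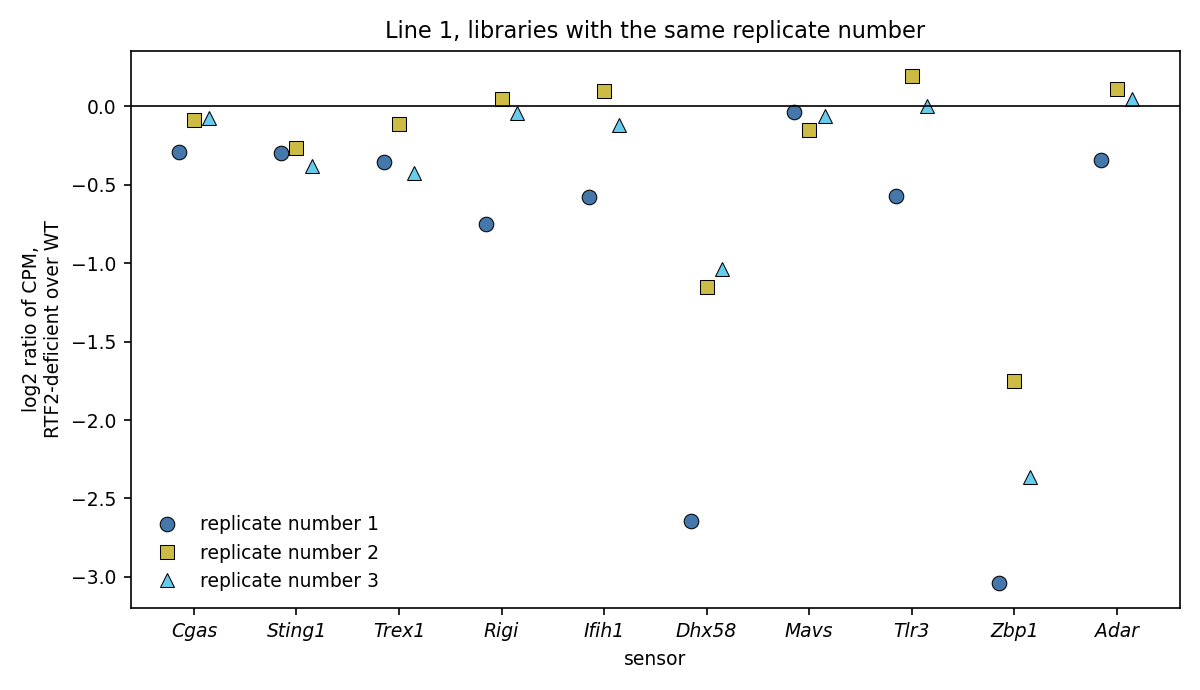
For each sensor the 3 log2 ratios of same-numbered libraries in line 1, RTF2-deficient over WT, are plotted against a line at 0 (equal levels). All 3 points of Zbp1 lie between −3.04 and −1.75 and all 3 of Dhx58 between −2.64 and −1.04, and for Rigi, Ifih1, Tlr3 and Adar pairs 2 and 3 lie between −0.12 and 0.19.

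In line 2 the outcome for the sensors depended on single libraries. RTF2-deficient line 2 replicate 3 was above WT line 2 replicate 3 for 9 sensors, Mavs being the exception, against 50.3% of all genes, and below WT line 2 replicate 1 for all 10, against 50.7%. RTF2-deficient replicate 1 was below every WT library of the line for 9 sensors (33.6% of all genes) and replicate 2 for 7 (33.5%). Without RTF2-deficient line 2 replicate 3, 5 sensors passed as lower in line 2, namely Zbp1 (−6.30, adjusted p = 0.0282), Dhx58 (−5.33, 0.0229), Ifih1 (−2.64, 0.0370), Rigi (−2.40, 0.0429) and Trex1 (−1.77, 0.0339), all in edgeR's quasi-likelihood test, against 9.14% of the genes tested in that fit. In that fit Mavs was at 0.04. Over both lines, Zbp1 (−5.48, adjusted p = 0.0327) and Dhx58 (−3.69, adjusted p = 0.0452) also passed without this library, against 7.92% of genes.

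Leaving out the highest WT library instead gave values nearer to 0 for all 10 sensors. Without WT line 2 replicate 1, the log2 fold changes in line 2 were −0.16 for Zbp1 (adjusted p = 0.964), −0.53 for Dhx58 (adjusted p = 0.843), −0.36 for Ifih1, −0.40 for Rigi and −0.42 for Trex1. Tlr3 turned to 0.21 and Mavs to 0.00, while Adar was at −0.17, Sting1 at −0.15 and Cgas at −0.06. Over both lines the value of Zbp1 became −1.003, that of Dhx58 −1.22 and that of Tlr3 −0.01.

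**Figure D4:**
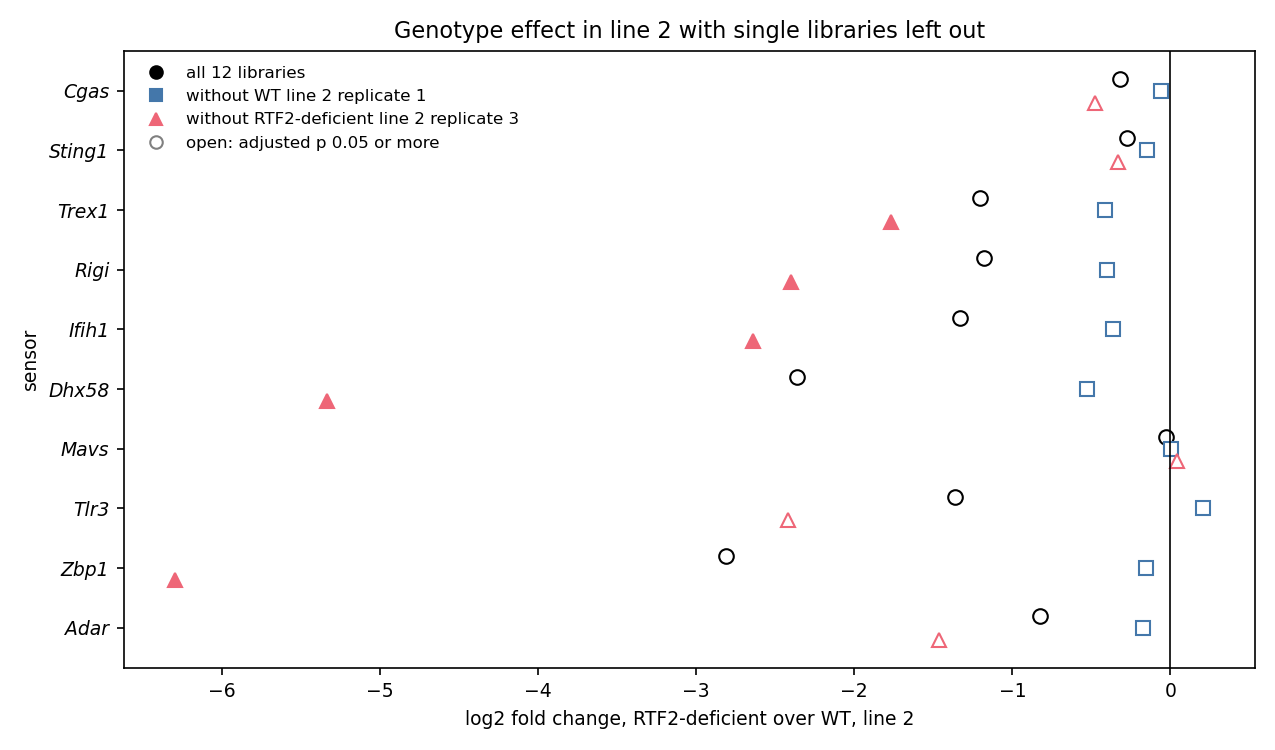
The log2 fold change of each sensor in line 2, RTF2-deficient over WT, is plotted from all 12 libraries and with either WT replicate 1 or RTF2-deficient replicate 3 of that line left out. Zbp1 moves from −2.81 to −0.16 in the former and to −6.30 in the latter, and Mavs stays between −0.03 and 0.04.

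The WT lines share genotype and treatment, and differed from each other in sensors as well. They differ also in the sex-linked genes given above, so line and sex cannot be told apart in this comparison. WT line 2 was above WT line 1 with an adjusted p under 0.05 for 3 of 10 sensors, against 6.70% of all genes tested. Sting1 was 2.28-fold higher (log2 1.19, SE 0.14, adjusted p = 0.000248), Ifih1 13.6-fold higher (3.77, SE 0.86, adjusted p = 0.0141) and Zbp1 70.8-fold higher (6.15, SE 1.75, adjusted p = 0.0391). The call of Sting1 held with each library left out in turn. That of Ifih1 was lost without WT line 1 replicate 2 (adjusted p = 0.0663) or replicate 3 (adjusted p = 0.0572). That of Zbp1 was lost when any 1 library of line 1 was left out and without WT line 2 replicate 1, where the log2 value fell to 3.48 (adjusted p = 0.162).

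Of the others, Dhx58 (4.44, adjusted p = 0.0596), Rigi (2.39, 0.0646), Trex1 (1.52, 0.0611), Tlr3 (2.54, 0.0716) and Adar (1.49, 0.0724) lay just outside the threshold, Cgas was at 0.53 (adjusted p = 0.124) and Mavs at 0.03 (adjusted p = 0.838). No library of WT line 2 overlapped WT line 1 for 6 sensors (Sting1, Trex1, Rigi, Ifih1, Dhx58 and Zbp1), as for 15.1% of all genes in that direction. Between the RTF2-deficient groups, which share no library with the WT groups, Sting1 alone passed as higher in line 2, against 1.09% of all genes tested. It was 2.34-fold higher (log2 1.23, SE 0.14, adjusted p = 0.00111) and kept the call with each library left out in turn. Zbp1 was at 5.86 (adjusted p = 0.237), Dhx58 at 4.05 (0.260) and Ifih1 at 2.74 (0.152) in that comparison, and without RTF2-deficient line 2 replicate 3 they were at 2.35, 1.05 and 1.40. The 3 RTF2-deficient libraries of line 2 lay above those of line 1 for 4 sensors (Sting1, Ifih1, Dhx58 and Zbp1), as for 9.75% of all genes.

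Medians of all 10 sensors were highest in WT line 2, and lowest in RTF2-deficient line 1 for 7 sensors and in WT line 1 for Rigi, Tlr3 and Adar. Neighbours in that order of the 4 groups overlapped in most cases. The steps without overlap were RTF2-deficient line 2 above WT line 1 for Sting1, WT line 1 above RTF2-deficient line 1 for Dhx58 and Zbp1, and WT line 2 above WT line 1 for Trex1.

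Libraries of the same group differed widely in these genes. The highest library was at least 2 times the lowest for 4 sensors in WT line 1 (Rigi, Ifih1, Dhx58 and Zbp1), for Dhx58 alone in RTF2-deficient line 1, and for 7 sensors in each group of line 2, that is all but Cgas, Sting1 and Mavs. Among all genes tested that share was 11.7% in WT line 1, 10.4% in RTF2-deficient line 1, 12.4% in WT line 2 and 11.5% in RTF2-deficient line 2. Over all 12 libraries Zbp1 went from 3 to 5446 counts. The highest level was 339.6 times the lowest for Dhx58, 43.5 times for Ifih1, 18.3 times for Tlr3, 16.6 times for Rigi, 7.16 times for Trex1, 5.86 times for Adar, 3.69 times for Sting1 and 2.26 times for Cgas. 

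These differences were set beside an interferon score, the median log2 CPM of 20 interferon-stimulated genes, none of them a sensor. In replicates 1, 2 and 3 the score was 4.31, 1.14 and 1.94 in WT line 1 and 2.19, 0.905 and 1.26 in RTF2-deficient line 1. It was 8.41, 5.03 and 6.66 in WT line 2 and 1.98, 3.56 and 7.02 in RTF2-deficient line 2. For 7 sensors the highest library was that of the score in all 4 groups, for Cgas and Zbp1 in 3 and for Mavs in 1. The full order within each group was that of the score for Dhx58 alone. No share of all genes was taken for these counts, so they describe the sensors only. None of the 20 genes passed the test for genotype over both lines, in line 1 or in line 2 (medians −1.48, −1.19 and −1.57), against 13.2%, 3.20% and 12.5% of all genes, and 7 were higher in WT line 2 than in WT line 1, against 6.70% of all genes, with a median of 4.34 over the list. In the fit of line 1 alone with the replicate block, 14 of the 20 passed as lower in RTF2-deficient MEFs, against 14.2% of all genes. Of 5 interferons and early cytokines tested in that fit, Cxcl10 passed as higher and Cxcl1 as lower, against 13.9% and 14.2% of all genes. The part of the interferon score in the sensors' values was not tested.

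**Figure D5:**
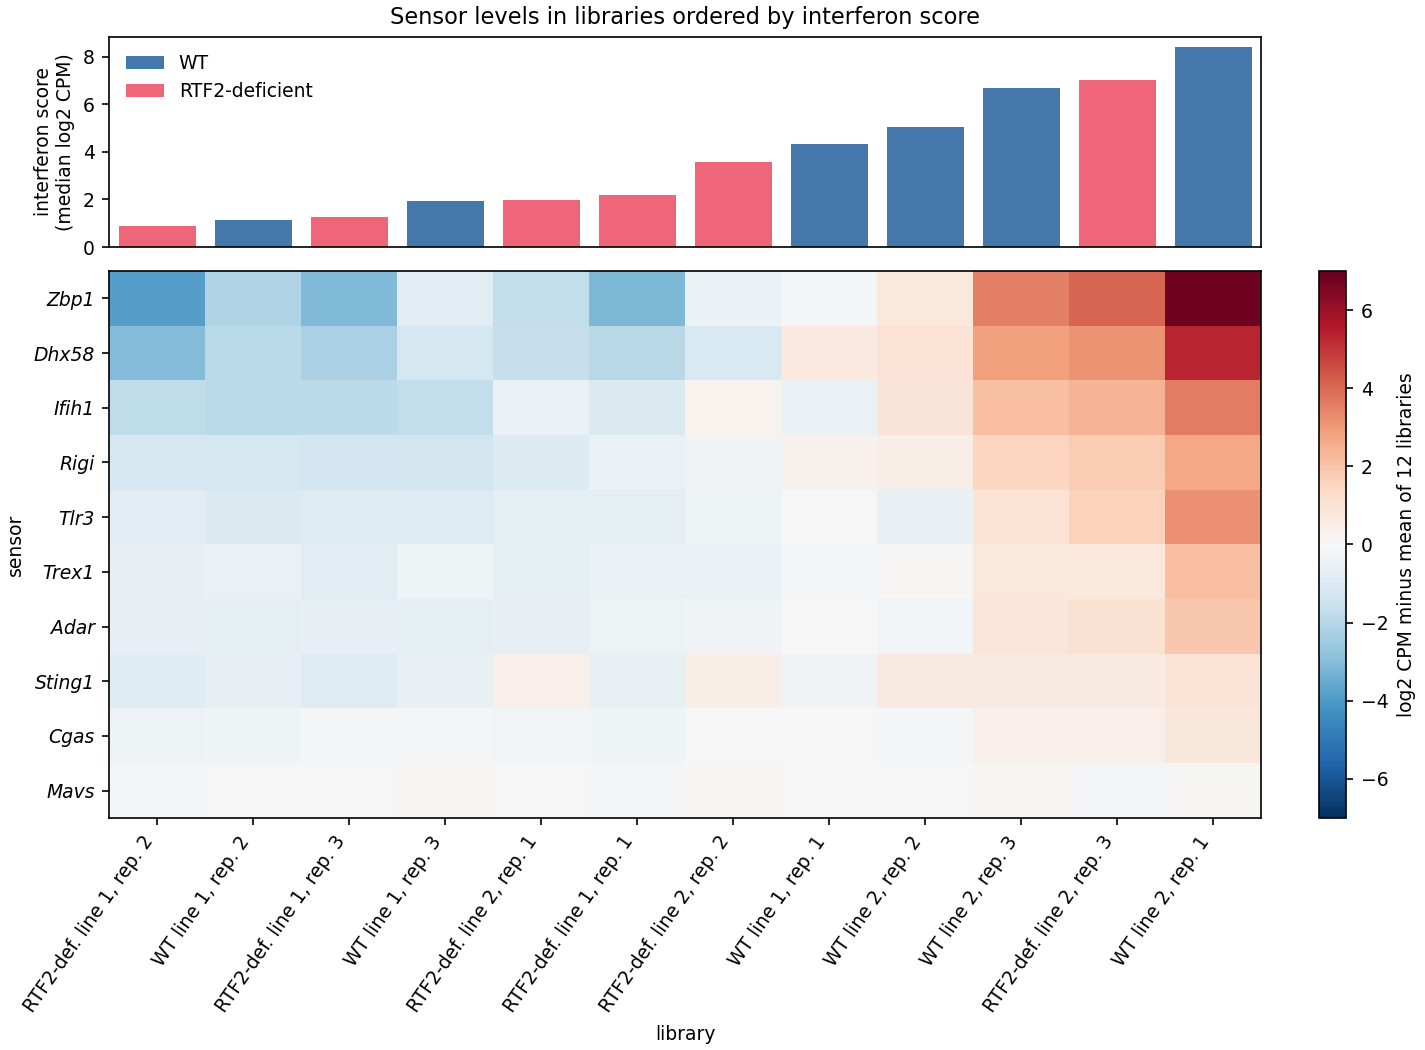
Bars give the interferon score (log2 CPM) of the 12 libraries, which are sorted by it, and the colours below give each sensor's log2 CPM minus its mean over the 12 libraries. WT line 2 replicate 1 (score 8.41) and RTF2-deficient line 2 replicate 3 (score 7.02) stand at the high end, RTF2-deficient line 1 replicate 2 (score 0.905) at the low end, and Mavs shows almost no colour.

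Interferon transcripts were scarce. Ifnb1, the early interferon of fibroblasts, reached 69 counts (1.498 CPM) in WT line 2 replicate 1, and was at 0.142 CPM in WT line 2 replicate 3, at 0.113 CPM in RTF2-deficient line 2 replicate 3, at 0.051 CPM in RTF2-deficient line 2 replicate 2 and at 0.024 CPM in RTF2-deficient line 1 replicate 1. It had no count in the other 7 libraries. Ifna4 had at most 13 counts, and Ifna2, Ifna5, Ifna6, Ifnl2, Ifnl3 and Ifng had none in any library, where the limit was 0.0762 CPM.

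Markers of blood cells, which carry many of these sensors, were low. Their summed level over 8 markers was 4.90 to 6.88 CPM in line 1 and 8.13 to 13.9 CPM in line 2. Ptprc (at most 0.122 CPM), Adgre1 (at most 0.128 CPM) and Tyrobp (at most 0.0513 CPM) were at or near 0. Itgam reached 0.412 CPM and Lyz2 1.13 CPM. Csf1r, at 0.608 to 1.83 CPM, and Cd14, at 1.89 to 3.80 CPM, had counts in every library. Cd68, a lysosomal protein of macrophages, was at 1.44 to 8.94 CPM, higher in WT line 2 than in WT line 1 (log2 2.01, adjusted p = 0.000159) and lower in RTF2-deficient than in WT MEFs of line 2 (−1.07, adjusted p = 0.00809), and its part in the sensors' values was not tested. Over both lines none of the 5 blood markers that could be tested passed for genotype, against 13.2% of all genes. Endothelial markers summed to 10.6 to 21.5 CPM and epithelial markers to 2.06 to 13.1 CPM, and Kdr (0.58, adjusted p = 0.0492) and Krt18 (0.74, adjusted p = 0.0381) passed as higher in RTF2-deficient MEFs over both lines. They were 1 of 2 endothelial and 1 of 4 epithelial markers tested, against 4.98% of all genes higher. Between the WT lines, 2 of 4 epithelial markers were higher in line 2, with a median of 1.75 over the list, against 6.70% of all genes. They were Krt18 and Krt8, of which Krt8 had at most 14 counts (0.334 CPM) in any library. Of 10 fibroblast markers 3 (Col1a2, Thy1 and Pdgfrb) were lower in WT line 2 than in WT line 1, with a median of −0.27, against 7.31% of all genes. The part of these epithelial and fibroblast markers in the sensors' difference between the WT lines was not tested.

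Deviations of the sensors from their group means went together over the 12 libraries. Without Mavs and Sting1, the 28 pairs among the other 8 sensors had Pearson's r from 0.825 to 0.994, and those of Sting1 with them were 0.553 to 0.834. Pairs with Mavs had r from −0.271 to 0.153. These values share the same 12 libraries and their scaling. The genes most like a sensor by this measure, among 12230 genes above 1 CPM, were Samd9l for Ifih1 (r = 0.998), Irgm2 for Rigi (0.997), Fbxw17 for Trex1 (0.996), Plekhn1 for Tlr3 (0.996), Shisa5 for Adar (0.996), Rsad2 for Zbp1 (0.993), Sp100 for Dhx58 (0.991), Ranbp10 for Cgas (0.984), Spsb1 for Sting1 (0.975) and Slc20a2 for Mavs (0.948).

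Levels of different sensors were compared per kilobase of exon, as median CPM per kb. In WT line 1, Mavs had the highest median at 9.29 CPM per kb, without overlap with Trex1, which came next, although the highest Rigi library (11.4) was above every Mavs library. Mavs was followed by Trex1 (6.25), Sting1 (5.34), Adar (4.97), Cgas (4.33) and Rigi (3.99). Ifih1 (1.40), Tlr3 (1.03), Dhx58 (0.398) and Zbp1 (0.178) were the lowest there. RTF2-deficient line 1 had the same ends, with Mavs at 8.70 and Zbp1 at 0.0338 CPM per kb.

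By medians the order was another in WT line 2, where Rigi stood at 26.8 CPM per kb before Ifih1 (19.4), Adar (14.1), Trex1 (13.0) and Sting1 (12.2), and Mavs, at 9.64, came next. Dhx58 (6.91), Cgas (5.95), Tlr3 (3.75) and Zbp1 (3.48) followed. All neighbours in that order overlapped in their libraries, except Sting1 above Mavs. In RTF2-deficient line 2 the medians were 10.7 for Sting1, 9.24 for Mavs, 7.76 for Rigi, 6.51 for Adar, 5.59 for Trex1, 5.36 for Ifih1, 4.48 for Cgas, 1.51 for Tlr3, 0.455 for Dhx58 and 0.225 for Zbp1, and all neighbours overlapped.

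Downstream of the sensors, 21 kinases, adaptors and transcription factors were tested. Over both lines 3 fell in RTF2-deficient MEFs (Ikbkb, Irf3 and Tradd) and 1 rose (Traf2), against 8.18% of all genes lower and 4.98% higher, with a median of −0.05 over the list. Ikbkb, a kinase of the NF-κB pathway, was at 34.5, 35.5 and 35.7 CPM in WT line 1, at 21.3, 24.2 and 22.3 CPM in RTF2-deficient line 1, at 42.5, 36.2 and 35.7 CPM in WT line 2 and at 23.3, 23.1 and 25.7 CPM in RTF2-deficient line 2. The genotypes were apart in both lines, and Ikbkb fell 1.57-fold (log2 −0.65, SE 0.06, adjusted p = 3.06e-05), with −0.64 in line 1 (adjusted p = 0.00286) and −0.67 in line 2 (adjusted p = 0.000825).

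Irf3, the factor phosphorylated after STING, MAVS and TLR3 signal, was at 32.4, 33.7 and 38.9 CPM in WT line 1, at 31.8, 31.4 and 29.2 CPM in RTF2-deficient line 1, at 34.8, 36.9 and 35.5 CPM in WT line 2 and at 28.2, 26.8 and 30.9 CPM in RTF2-deficient line 2. No RTF2-deficient library reached a WT library of its line. It fell by 0.25 on the log2 scale over both lines (SE 0.06, adjusted p = 0.0188), a call lost without RTF2-deficient line 2 replicate 2 (adjusted p = 0.0510). Tradd (−0.34, SE 0.10, adjusted p = 0.0457) kept its call in 1 of 12 fits that left out a library, the fit without RTF2-deficient line 1 replicate 2. Traf2 (0.16, SE 0.04, adjusted p = 0.0305), named after its value was seen, kept its call in 7 of 12 fits that left out a library and in 7 of 9 other alternatives beside summed libraries (adjusted p up to 0.0885). Within lines, Ikbkb passed as lower in line 1, where 2.52% of all genes did, and Ikbkb, Irf3 and Ikbke (−1.06, SE 0.25, adjusted p = 0.0195) in line 2, where 7.03% did. Fitting line 2 alone ended the calls of Ikbke (adjusted p = 0.0801) and Irf3 (adjusted p = 0.0732), and no filter on low counts ended that of Irf3. Ikbke and Irf3 lost their calls without WT replicate 1 or without RTF2-deficient replicate 1 or 2, and Irf3 also without WT replicate 2 or 3 or replicate 2 of either group of line 1.

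Of 27 further nucleic acid sensors, 23 could be tested, and over both lines 2 fell and 1 rose, with a median of −0.27. These are shares close to those of all genes tested (8.18% lower and 4.98% higher). Xrcc6, the Ku70 subunit of the DNA end-binding complex, was at 46.3, 46.0 and 52.3 CPM in WT line 1 and at 35.4, 33.4 and 35.8 CPM in RTF2-deficient line 1, and at 44.5, 53.8 and 50.6 CPM against 37.1, 36.7 and 38.1 CPM in line 2. The genotypes did not overlap in either line, and Xrcc6 fell by 0.44 on the log2 scale (SE 0.06, adjusted p = 0.000382). Mre11a, a nuclease of DNA break repair, fell by 0.24 (SE 0.05, adjusted p = 0.00902), and Polr3a, a subunit of RNA polymerase III, rose by 0.23 (SE 0.06, adjusted p = 0.0222). The call of Polr3a was lost without RTF2-deficient line 1 replicate 3 or RTF2-deficient line 2 replicate 1 or 2 (adjusted p = 0.0521 to 0.0545). Ifi204, Mndal, Oas1a and Oas3, which are themselves induced by interferon, passed as higher in WT line 2 than in WT line 1, 4 of 23 against 6.70% of all genes.

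Among 24 regulators of the sensors and of their ligands, 1 fell (Rnaseh2c) and 1 rose over both lines, no larger a share than the 8.18% and 4.98% of all genes. The latter, Lrrc8a (0.17, SE 0.04, adjusted p = 0.0240), a channel subunit through which cGAMP passes, lost its call without RTF2-deficient line 2 replicate 1 or 2. Of the 8 Aicardi-Goutières genes tested, mutation of which causes an interferon disease, Rnaseh2c alone passed over both lines, 1 of 8 against 8.18% of all genes lower. It was at 15.1, 15.2 and 16.1 CPM against 7.76, 8.17 and 7.82 CPM in line 1 and 12.6, 21.3 and 14.0 CPM against 7.38, 7.18 and 8.05 CPM in line 2. It encodes a subunit of the enzyme that removes ribonucleotides from DNA. It was 2.03-fold lower in RTF2-deficient MEFs (log2 −1.02, SE 0.11, adjusted p = 0.000145). Its partners Rnaseh2a (0.03, adjusted p = 0.782) and Rnaseh2b (−0.11, adjusted p = 0.368) did not pass, nor did Samhd1 (−0.27, 0.311), Lsm11 (0.06, 0.665) or, as given above, Trex1, Adar and Ifih1.

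Of 15 interferons and early cytokines, 5 could be tested. Cxcl1, a chemokine, fell by 1.54 on the log2 scale over both lines (SE 0.32, adjusted p = 0.00834) and by 1.78 in line 2 (adjusted p = 0.0205), against 8.18% and 7.03% of all genes lower. In line 2 the call was lost without WT replicate 1 or RTF2-deficient replicate 1 or 2 and with line 2 fitted alone (adjusted p = 0.0640). Without the term for line it did not pass over both lines (adjusted p = 0.166). Cxcl10, Ccl5, Ccl2 and Cxcl1 passed as higher in WT line 2 than in WT line 1, 4 of 5 against 6.70% of all genes.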

How the data were processed

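RNA was sequenced from 12 libraries, and the authors deposited the raw count of reads per gene and library, with Entrez Gene numbers as names and without normalization. Salmon, tximport and mm10 gene models are named in the methods and HTSeq with mm10 in the submitters' processing notes, so which of these tools made the counts is unsettled. Whether counting used strand is not given in the sources used here. Reads of Dhx58, Cgas, Tlr3 and Adar can therefore not be told from those of genes that overlap them on the opposite strand, and Chrnb2, opposite Adar, was at no more than 0.391 CPM. Each column carried the label of its sample, all columns were used, and symbols and positions came from RefSeq's GRCm38 annotation (24045 of 24100 identifiers matched). No count in any library was found for 4418 genes.

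The analysis used R 4.3.3, edgeR 4.0.16, limma 3.58.1 and DESeq2 1.42.0. After filterByExpr on the 4 groups and TMM scaling, 14263 genes were fitted with glmQLFit and tested with glmQLFTest, with terms for line and genotype over both lines and with contrasts in a layout of the 4 groups otherwise. A gene passed at a Benjamini-Hochberg adjusted p under 0.05 over all genes tested. The standard error is the absolute coefficient over the root of F. A count of 0 was read against a limit of 3 counts. The script was tested on simulated data.

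The genes named are the 10 sensors, Rtf2, up to 4 genes per list with the largest effect among those that passed, all Aicardi-Goutières genes, and the genes most like each sensor in their deviations from group means. Traf2, interferon transcripts, cell type and sex markers and genes of the lists that passed between the WT lines are named outside this rule, after their values were seen. The members, the lists and the tests were chosen with earlier results of these data known. Alternatives were RLE and upper-quartile scaling, no filter, 1 CPM in 6 libraries, no line term, a replicate block, summed libraries, voom with a random block per group, DESeq2 and each library left out. Each line fitted alone, with and without the block, and the block in line 1 alone were added after seeing the data. Same-numbered libraries of line 1 deviated together and each of its 6 libraries correlated best with its own number, and none of the 6 did in line 2, so the pairing in line 1 comes from the data and not from the labels.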

Additional observations from a re-analysis of the deposited data

Results flagged for a closer look

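Within each genotype, the 6 libraries of both lines were searched for a single value far from the others, judged by its gap to the nearest library relative to the whole range. In all 12 of 20 sets were marked, each by 1 of the same 2 libraries. Chance marks about 5% of sets drawn from 1 population, but each set here pools 2 lines whose levels differ, on a linear scale, so the count of 12 cannot be read against that share. Among WT libraries, replicate 1 of line 2 stood far above the others for Ifih1 (442 CPM), Dhx58 (125 CPM), Zbp1 (118 CPM), Tlr3 (91.0 CPM) and Trex1 (38.2 CPM). Among RTF2-deficient libraries, replicate 3 of line 2 stood far above the others for Rigi (226 CPM), Ifih1 (196 CPM), Adar (129.6 CPM), Tlr3 (31.3 CPM), Dhx58 (27.2 CPM), Zbp1 (17.6 CPM) and Trex1 (14.96 CPM). Cgas, Sting1 and Mavs gave no such value in either genotype. Both libraries had the highest interferon scores of their groups, and the sets are not independent of each other, since the sensors share their libraries.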

How the results depend on the processing

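With 1 library left out at a time, the sensors that passed for genotype numbered 0 to 2 over both lines, 0 in line 1, 0 to 5 in line 2 and 0 in the difference between lines, beside 1158 to 1974, 192 to 480, 813 to 2372 and 66 to 164 of all genes. For WT line 2 against WT line 1 they numbered 1 to 9 (1260 to 2221 of all genes), and for RTF2-deficient line 2 against line 1 always 1 (119 to 400 of all genes). Between the WT lines 9 passed when WT line 2 replicate 2 was left out, and 8 when RTF2-deficient line 2 replicate 3 was. DESeq2 called 2 sensors over both lines (Sting1, adjusted p = 0.0295, and Zbp1, 0.0465), 1 in line 2 (Trex1, 0.0464), 8 between the WT lines and 4 between the RTF2-deficient groups, and of all genes 2697, 2586 and 2748 in the first 3 of these and 852 in line 1 against 456, 409 in the difference between lines against 184 and 695 between the RTF2-deficient groups against 276. Over both lines, voom called 1 sensor (Sting1, 0.0143) and 3457 genes against 1878, no line term 1227 genes, and summed libraries 0 genes at an adjusted p under 0.05, since they leave 1 sample a group.

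The replicate block in both lines called 0 sensors for genotype over both lines, in line 1 and in line 2, beside 1646, 357 and 1629 of all genes. Tradd was called over both lines in 6 of 9 alternatives that neither left out nor summed libraries, this block being 1 of the 3 that ended its call. The block in line 1 alone called 1 sensor over both lines (Sting1, adjusted p = 0.0272) beside 2123 of all genes, and 473 genes between the RTF2-deficient groups, and between the WT lines it gained Rigi (0.0487) and lost Zbp1 (0.0550). In line 1 this block called 0 sensors and 521 genes. Line 1 fitted alone called 0 sensors and 360 genes, with the block as well 4 sensors and 4004 genes, and line 2 fitted alone 962 genes against 1776. The 10 single values that changed sign all did so with a library left out. In line 1 the ranges were −0.71 to 0.33 for Rigi, −0.62 to 0.31 for Ifih1, −0.37 to 0.20 for Tlr3 and −0.22 to 0.16 for Adar, each highest without WT line 1 replicate 1. In line 2 they were −2.42 to 0.21 for Tlr3, highest without WT replicate 1, and −0.073 to 0.041 for Mavs, above 0 without WT replicate 1 (0.0026) or RTF2-deficient replicate 3. Between the WT lines Mavs had −0.011 to 0.067, with values below 0 without WT line 1 replicate 1 or WT line 2 replicate 1 (−0.0059) or 3 (−0.0025). The cause of these changes was not tested. Of the single-gene values under alternatives, 1567 kept direction and side of the threshold, 50 gained a call and 71 lost one. Depth limits Zbp1 most in RTF2-deficient line 1, where it had 3 to 5 counts.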
